A study of Mus musculus with 12 samples.

Results

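The 9 genes described here belong to type I interferon signalling and were followed across mouse embryonic stem cell lines that differ in Dicer: the receptor subunits Ifnar1 and Ifnar2, the receptor kinases Jak1 and Tyk2, and the transcription factors Stat2, Irf9, Irf1, Irf2 and Irf3. They were chosen by name, with earlier results of these data known, and all 9 were found among the 47643 genes of the count table and among the 14629 genes with enough reads to test. The mRNA of E14 cells of the 129/Ola background was sequenced from 6 groups with 2 libraries each. WT is the wild type, KO is labelled a Dicer knockout, and SOM, 41584, 41585 and 41589 are complemented lines. The labels call 41584 similar to the wild type, 41585 deficient in the processing of miRNAs and of siRNAs, and 41589 deficient in the processing of siRNAs, and they give no such property for SOM. All lines were grown with serum, LIF and puromycin at 1 µg/mL, without an interferon treatment in the labels. Whether a group's 2 libraries stem from independent cultures is not in the labels, so p-values reflect the spread between libraries, which may be technical.

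Type I interferons bind a receptor made of IFNAR1 and IFNAR2, and the kinases TYK2 and JAK1 attached to it phosphorylate STAT proteins. STAT2 and IRF9 belong to the complex ISGF3, which binds interferon-stimulated response elements (ISREs), while STAT dimers bind gamma-activated sites (GAS). IRF3 switches on interferon genes after viral RNA or DNA is sensed, IRF1 activates antigen presentation and other interferon-inducible genes, and IRF2 was first described as an antagonist of IRF1. Dicer cuts precursor RNAs into miRNAs and siRNAs, and embryonic stem cells are known for a weak response to interferon.

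Libraries held 5348401 to 10428509 counted reads. Levels are given as CPM, reads of a gene over the library's reads in tested genes, after scaling by the trimmed mean of M-values (TMM), with mean ± SD and n = 2. Dicer1 fell by 2.5 ± 0.36 on the log2 scale in KO against WT (edgeR adjusted p = 0.0015). Its level was 206 ± 11.4 CPM in WT and 36.3 ± 11 CPM in KO, but 48.7 ± 8.99 CPM in 41584 and 34 ± 8.8 CPM in 41589 as well. It was 105 and 215 CPM in the SOM libraries. Whether reads of a complementing Dicer transgene are counted in Dicer1 is not given in the labels, so these levels do not show how much Dicer the complemented lines make. In the second principal component both SOM libraries and replicate 2 of 41584 and of 41589 stood at -51.1 to -39.6, apart from the others at -3.6 to 53.8. All 8 stem cell markers (Pou5f1, Nanog and others) were tested, and their summed level was 6640 to 7370 CPM in the KO and 41585 libraries and 5670 to 6870 CPM in the other 8. The markers differed in direction. Dppa5a had means of 3370 CPM in KO and 3030 in 41585 against 2030 to 2250 in the other groups. Nanog, Sox2, Zfp42 and Tdgf1 had lower means in KO and 41585 than in every other group. For Zfp42 these were 522 and 592 CPM against 720 to 842. Means of Pou5f1, Esrrb and Utf1 overlapped. The summed level of 8 blood and immune cell markers was higher in KO and 41585, at 27.6 to 37.3 CPM against 11.5 to 22.5 CPM. Tyrobp was at 0 in every library, the pan-leukocyte gene Ptprc had at most 1 read in any group, and Cd68 and Cd3e held most of the sum, with means of 26 and 7.09 CPM in 41585. The summed level of 6 primitive endoderm markers was 5.7 to 9.15 CPM in KO and 41585 and 7.94 to 65.7 CPM in the other 8 libraries. Of these, Dab2 had a mean of 18.8 ± 20.7 CPM in 41584, 1.44 in KO and 0.433 in 41585, while means of Gata4 overlapped. Sums of fibroblast and of trophoblast markers overlapped as well. The part of such cells in the results was not tested. In bulk RNA, a change in the number of cells that express a gene and a change in its RNA per cell cannot be told apart.

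The promoters of Irf1 and Irf2, which had the largest fitted folds of the 9 genes, are shown with the letters of these elements that they hold. The RefSeq windows (GRCm38.p6, 300 bases around the start) are on the plus strand, Irf1 at chr11:53769764-53770063 and Irf2 at chr8:46739495-46739794. Capitals mark GAS letters (TTCNNNGAA) and ISRE core letters (GAAA, any 2 bases, GAAA), both searched on both strands.
Irf1: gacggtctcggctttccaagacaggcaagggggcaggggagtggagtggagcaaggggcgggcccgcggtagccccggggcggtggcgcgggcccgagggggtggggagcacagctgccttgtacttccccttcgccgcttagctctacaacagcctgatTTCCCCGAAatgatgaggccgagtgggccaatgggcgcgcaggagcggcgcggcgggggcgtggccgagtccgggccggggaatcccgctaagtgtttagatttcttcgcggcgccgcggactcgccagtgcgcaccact
Irf2: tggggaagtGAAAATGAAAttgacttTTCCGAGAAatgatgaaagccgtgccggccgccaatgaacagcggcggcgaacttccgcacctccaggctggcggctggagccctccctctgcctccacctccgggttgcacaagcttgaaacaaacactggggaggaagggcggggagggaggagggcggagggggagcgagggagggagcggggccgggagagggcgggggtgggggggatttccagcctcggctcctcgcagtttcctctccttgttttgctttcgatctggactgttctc
Irf1 has the GAS letters 90 bases before its start. Irf2 has an ISRE core 241 bases before its start and GAS letters 224 bases before it, without overlap. Of 11 windows for the 9 genes, 4 held the GAS letters (those of Irf1, Irf2, Ifnar1 and Ifnar2), against 8.3% of 32851 RefSeq promoters. The ISRE core was in 2 windows, of Irf2 and Stat2, against 3.44%. The windows of Irf9, Irf3, Jak1 and Tyk2 held neither. These matches describe letters and not binding.

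Dicer makes the miRNAs of the miR-290 and miR-302 clusters, a family typical of embryonic stem cells. The RefSeq mature sequences that share the seed AAGUGCU (bases 2 to 8, in capitals) are shown because this seed was sought in the members' transcripts.
mmu-miR-302b-3p: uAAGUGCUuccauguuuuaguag
mmu-miR-302d-3p: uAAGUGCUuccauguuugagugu
mmu-miR-291a-3p: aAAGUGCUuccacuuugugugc
mmu-miR-294-3p: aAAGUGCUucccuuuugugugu
mmu-miR-295-3p: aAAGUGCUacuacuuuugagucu
The complementary letters, AGCACTT, occurred in the 3′ untranslated regions of 3 of the 9 genes, against 14.9% of 20661 genes. Stretches around each match, with the match in capitals and its position counted from the first base after the stop codon, are as follows.
Irf2, base 442 of 1236: ccttatcttgaAGCACTTacaataggcctt
Stat2, base 751 of 1476: aatggtttctgAGCACTTgggaattactcc
Irf9, base 174 of 999: cttgtaatctcAGCACTTggaagacagacc
Irf9, base 347 of 999: ctctaaatctaAGCACTTtatatattttat
Irf1, Jak1, Tyk2, Irf3, Ifnar1 and Ifnar2 held none. Of the genes described next as higher, Irf2 and Irf9 therefore had this site and Irf1 and Jak1 did not.

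Irf1, Irf9 and Irf2 were higher in KO than in WT and higher in 41585 than in 41584, which share no library with the first pair. Across all 12 libraries these 3 genes and Jak1 had every KO and 41585 library above all 8 others, as had 10.2% of the genes tested. In KO against WT 3 of the 9 genes rose and none fell, beside 7.29% of all genes that rose. In 41585 against 41584 again 3 rose, beside 7.65%, and in the mean of both pairs 4 rose, beside 17.8%. Irf2 passed the filter on low counts only through KO and 41585, so that its place in these counts follows in part from the filter. The median log2 fold of the 9 genes was 0.66 in the mean of both pairs, and that of all genes was -0.005.

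**Figure D1:**
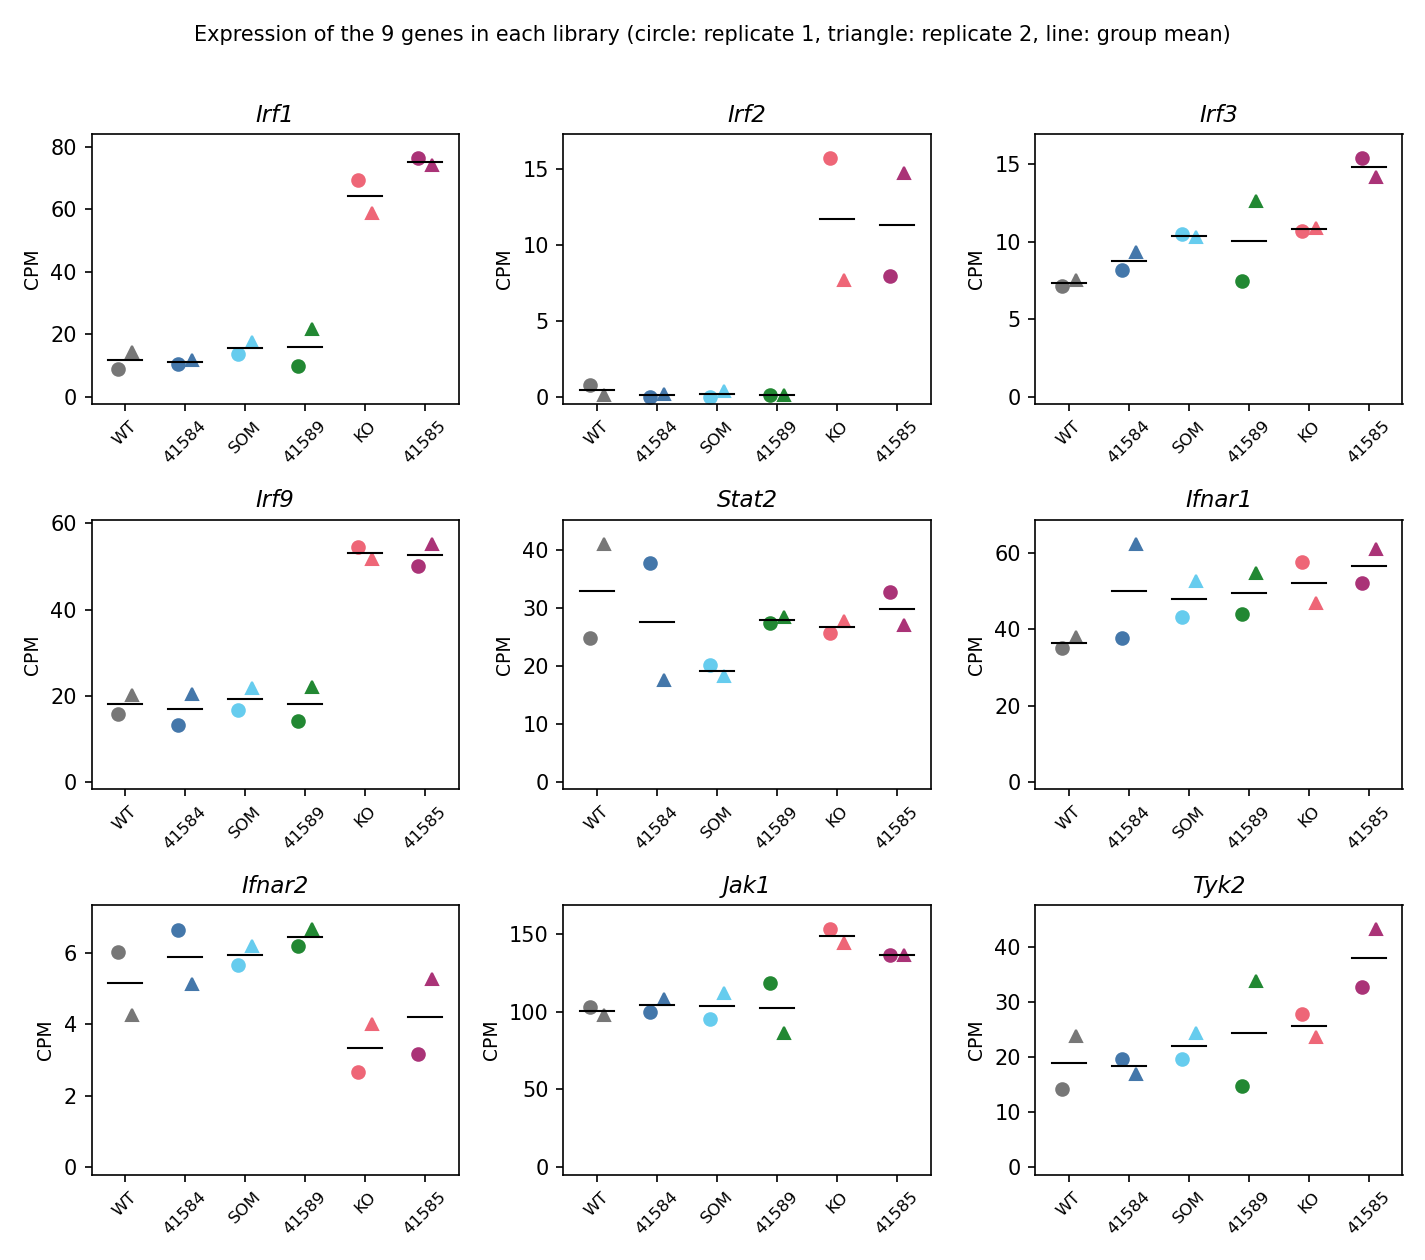
Level in CPM (vertical axis, linear, each panel on its own scale) of the 9 genes in each library, by group, with the group mean as a line. Irf1, Irf2, Irf9 and Jak1 have all 4 KO and 41585 libraries above the other 8, and the other 5 genes overlap.

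The receptor was expressed in every line. Ifnar1 held 35 and 38 CPM in WT, 37.7 and 62.5 in 41584, 43.2 and 52.6 in SOM, 44.1 and 54.9 in 41589, 57.6 and 46.8 in KO, and 52.2 and 61.1 in 41585. The highest library was replicate 2 of 41584, and the groups overlapped. Its log2 fold was 0.52 ± 0.27 in KO against WT (edgeR adjusted p = 0.222) and 0.35 ± 0.19 in the mean of both pairs (adjusted p = 0.175), where it passed the threshold without replicate 2 of 41584 (adjusted p = 0.0358). Ifnar2, the subunit that binds interferon with high affinity, had 1.55 CPM per kb in WT against 6.14 for Ifnar1. Its level was 3.34 ± 0.933 CPM in KO, 4.22 ± 1.5 in 41585 and 5.15 ± 1.25 in WT. Its log2 fold was -0.55 ± 0.31 (adjusted p = 0.182). Ifnar2 shares 9.46% of its exon bases with Gm21970 on the same strand, and reads there cannot be assigned to one of them. Tyk2 shares 8.07% with the antisense gene 1700084C06Rik, Irf1 3.4% with Gm17334 and Irf3 2.56% with Bcl2l12, and since the strand setting of the counting is unknown, the same holds there.

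Of the kinases, Jak1 was the most abundant of the 9 genes per length, at 13.9 CPM per kb in WT and 20.6 in KO. It held 103 and 97.6 CPM in WT, 99.8 and 108 in 41584, 95.3 and 112 in SOM, 118 and 86.4 in 41589, 153 and 144 in KO, and 136 and 136 in 41585. Every KO and 41585 library was thus above every other library. Neither pair alone passed the threshold, with log2 folds of 0.57 ± 0.22 (edgeR adjusted p = 0.0972) and 0.39 ± 0.21 (adjusted p = 0.218). The mean of both pairs gave 0.48 ± 0.15 (adjusted p = 0.0279). This call was lost without WT replicate 1 (adjusted p = 0.0768), WT replicate 2 (0.0784), 41584 replicate 1 (0.0551), KO replicate 1 (0.106), KO replicate 2 (0.0674), 41585 replicate 1 (0.0712) or 41585 replicate 2 (0.0702), and with no filter on low counts (0.0616). Tyk2, the kinase bound to IFNAR1, held 14.2 and 23.8 CPM in WT, 19.7 and 16.9 in 41584, 19.7 and 24.4 in SOM, 14.8 and 33.8 in 41589, 27.8 and 23.6 in KO, and 32.6 and 43.2 in 41585. The second 41589 library was above both KO libraries. Its log2 fold was 0.74 ± 0.27 in the mean of both pairs (adjusted p = 0.0537), and DESeq2 called it (adjusted p = 0.0402), as did edgeR without WT replicate 2 (0.0403).

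Irf9 and Stat2, the DNA-binding and the transactivating partners in ISGF3, differed in pattern. Irf9 held 15.8 and 20.2 CPM in WT, 13.3 and 20.4 in 41584, 16.8 and 21.8 in SOM, and 14.2 and 22.1 in 41589. In KO it held 54.5 and 51.6 CPM and in 41585 50.2 and 55.3. The 4 lower groups lay within their own spread, and so did KO and 41585. The log2 fold was 1.56 ± 0.31 in KO against WT (edgeR adjusted p = 0.00885) and 1.65 ± 0.31 in 41585 against 41584 (adjusted p = 0.00817). The first call was lost without WT replicate 1 (adjusted p = 0.109) or KO replicate 1 (0.0846). The second was lost when edgeR was given only those 4 libraries (0.0513). The mean of both pairs was 1.6 ± 0.22 (adjusted p = 0.000334). Stat2 held 24.9 and 41.1 CPM in WT, 37.7 and 17.6 in 41584, 20.2 and 18.2 in SOM, 27.4 and 28.5 in 41589, 25.6 and 27.7 in KO, and 32.8 and 27 in 41585. Its lowest libraries were those of SOM and the second of 41584, and KO and 41585 lay within the range of WT. Its log2 fold in the mean of both pairs was -0.1 ± 0.25 (adjusted p = 0.773), with a change of sign without WT replicate 2 (0.1) or 41584 replicate 1 (0.23).

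Irf1, itself inducible by interferons, held 8.97 and 14.4 CPM in WT, 10.4 and 11.8 in 41584, 13.7 and 17.5 in SOM, and 9.73 and 21.8 in 41589. In KO it held 69.5 and 58.8 CPM and in 41585 76.4 and 74.2. In order of the means, 41584 (11.1 ± 1.03 CPM), WT (11.7 ± 3.87), SOM (15.6 ± 2.66) and 41589 (15.8 ± 8.55) overlapped, and KO (64.2 ± 7.58) and 41585 (75.3 ± 1.54) followed at a distance. The log2 fold was 2.44 ± 0.37 in KO against WT (edgeR adjusted p = 0.0021), 2.76 ± 0.38 in 41585 against 41584 (adjusted p = 0.00149) and 2.6 ± 0.27 in the mean of both pairs (adjusted p = 4.58e-05). Among all tested genes ranked by level per length, Irf1 stood at the 42.6th percentile in WT and at the 78.2nd in KO.

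Irf2 was at the edge of detection in 4 groups and at a low level in KO and 41585, at the 29.4th percentile of level per length among tested genes in KO. It had 5 and 1 reads in the WT libraries, 0 and 1 in 41584, 0 and 2 in SOM, and 1 and 1 in 41589. It had 129 and 50 reads in KO and 68 and 114 in 41585, or 15.7 and 7.7 CPM and 7.96 and 14.7 CPM. The KO level was 31.7 times that of WT (95% counting interval 14.3 to 87.5). The 41585 level was 159 times that of 41584, where the single read leaves an interval of 28.2 to 6310. These intervals cover counting error only. edgeR called both (adjusted p = 0.00472 and 0.00264), the first not without KO replicate 1 (adjusted p = 0.0527). The fitted log2 fold of the first pair, 4.81, was 6.55 without WT replicate 1, which held 5 of the 6 WT reads, 3.9 without WT replicate 2 and 4.2 without KO replicate 1. That of the second, 7.02, was 6.04 without 41584 replicate 1 and 9.46 without 41584 replicate 2. Per length, Irf2 in KO reached 1.58 CPM per kb, still a small fraction of the 16.1 CPM per kb of Irf1.

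Irf3 held 7.11 and 7.55 CPM in WT, 8.18 and 9.33 in 41584, 10.5 and 10.3 in SOM, 7.48 and 12.6 in 41589, 10.7 and 10.9 in KO, and 15.4 and 14.2 in 41585. The 41585 libraries were the highest, and KO overlapped 41589. Its log2 fold in the mean of both pairs was 0.66 ± 0.25 (edgeR adjusted p = 0.0581), and it passed when only those 8 libraries were fitted (adjusted p = 0.0395).

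**Figure D2:**
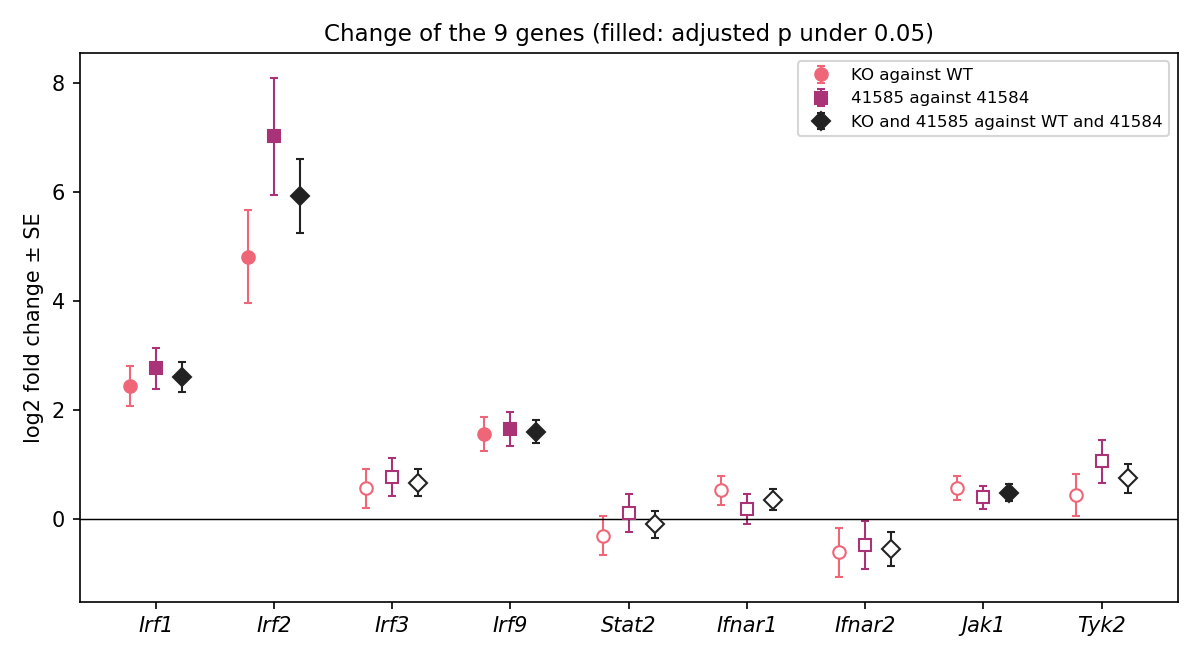
Log2 fold change ± SE of the 9 genes (vertical axis) in KO against WT, 41585 against 41584 and the mean of both, with filled symbols where the edgeR adjusted p was under 0.05. Irf1 and Irf9 lie near 2.6 and 1.6, and the fitted fold of Irf2 rests on 1 to 6 reads in the lower groups.

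The size of the change was also compared between the pairs. In the test of the difference of effects no member and 0% of all genes passed in edgeR, while 0 members and 419 genes had an unadjusted p under 0.05 and DESeq2 called 1 gene. The estimated difference was 0.32 ± 0.51 for Irf1 and 0.1 ± 0.43 for Irf9 on the log2 scale. In 41585 against KO edgeR called no member and 0% of genes (unadjusted p under 0.05: 0 members and 995 genes, DESeq2 1 gene).

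The line without siRNA processing, 41589, was set against both of its neighbours in the design. Against 41585, 3 members were lower, beside 5.22% of all genes: Irf1 fell by 2.25 ± 0.36 (edgeR adjusted p = 0.00393), Irf9 by 1.54 ± 0.31 (adjusted p = 0.0121), and Irf2 also fell (adjusted p = 0.00221), with 2 reads in 41589 and 182 in 41585. Irf1 fell by 2.94 without 41589 replicate 2. The Irf9 call was lost without 41589 replicate 1 (adjusted p = 0.0839), 41585 replicate 1 (0.0552) or 41585 replicate 2 (0.0736). Against 41584, edgeR called no member and 0% of genes, with 0 members and 103 genes at an unadjusted p under 0.05 and none called by DESeq2. There the log2 fold was 0.51 ± 0.37 for Irf1 and 0.11 ± 0.31 for Irf9 (both adjusted p = 1).

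The complemented lines were also compared with KO, in comparisons that share the KO libraries. Irf1, Irf2 and Irf9 fell in each, beside 4.6% of all genes in SOM, 4.98% in 41584 and 4.65% in 41589 that fell. Irf1 fell by 2.04 ± 0.37 in SOM (edgeR adjusted p = 0.0075), 2.53 ± 0.38 in 41584 (adjusted p = 0.00216) and 2.02 ± 0.36 in 41589 (adjusted p = 0.00628), where it fell by 2.75 without 41589 replicate 2. Irf9 fell by 1.46 ± 0.31 (adjusted p = 0.0172), 1.66 ± 0.31 (adjusted p = 0.00802) and 1.54 ± 0.31 (adjusted p = 0.0109). In SOM all 3 calls were lost without SOM replicate 1 (adjusted p = 0.115 for Irf1, 0.0804 for Irf2 and 0.193 for Irf9), and those of Irf1 and Irf9 without KO replicate 1 (0.0719 and 0.141). The Irf9 call in SOM was also lost without SOM replicate 2 (0.0612) or KO replicate 2 (0.0847). Without KO replicate 1, Irf9 was no longer called in 41584 (0.0766) or in 41589 (0.106), nor Irf1 in 41589 (0.0661). Irf9 in 41589 was lost too without 41589 replicate 1 (0.0605) or KO replicate 2 (0.0575). Against WT, no member and 0% of genes were called in SOM (unadjusted p under 0.05: 1 member and 3175 genes, DESeq2 662 genes, none of them a member) or, likewise at 0%, in 41584 (0 members and 706 genes, DESeq2 27 genes, none of them a member).

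The rest of the pathway was followed in lists chosen in the same way as the 9 genes. Unless another comparison is named, counts are for the mean of both pairs and edgeR, in which 17.8% of all genes rose and 16.2% fell. None of the interferon genes looked up was tested: 12 of 13 had no read in any library, and Ifng had at most 2. Since the counting program is not known, reads shared by near-identical interferon genes may have gone uncounted. Of the other cytokine receptors, 12 of 14 were tested, 5 rose and 1 fell (median log2 fold 0.42), the latter a smaller share than the 16.2% of all genes. Il2rg, the common gamma chain, rose by 3.12 ± 0.43 (adjusted p = 0.000327). Ifngr2, a subunit of the interferon gamma receptor, rose by 1.37 ± 0.28 (adjusted p = 0.00322), and Il6st, the gp130 subunit that signals for LIF, by 0.91 ± 0.2 (adjusted p = 0.00435). The receptor that fell was Lepr, the leptin receptor, by 1.89 ± 0.53 (adjusted p = 0.017). Lepr passed the filter on low counts only through groups other than KO and 41585, so its call follows in part from the filter. It was not called without WT replicate 1 (adjusted p = 0.0681), 41584 replicate 1 (0.105, with a fall of 1.24), KO replicate 1 (0.0642), KO replicate 2 (0.0569) or 41585 replicate 1 (0.0625), and 3 receptors were lower without 41584 replicate 2.

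Of the other JAK and STAT genes, 8 of 8 were tested and 3 rose (median 0.29). Among them Jak3, the kinase that pairs with the common gamma chain, ranged from 13.9 to 22 CPM in KO and 41585 and from 3.09 to 21 CPM in the other 8 libraries. Its log2 fold was 1.45 ± 0.39 (edgeR adjusted p = 0.0138), and the call was lost without WT replicate 1 (adjusted p = 0.0645). The count of 3 fell to 0 without WT replicate 1, and to 1 without WT replicate 2, KO replicate 1, KO replicate 2 or 41585 replicate 2. Of the other interferon regulatory factors and cofactors, 6 of 8 were tested: Irf2bp2, a corepressor that binds IRF2, rose by 0.95 ± 0.2 (adjusted p = 0.00389), and Irf8, a factor of myeloid cells, had 6 reads in KO and 41585 and 112 in WT and 41584 and was called lower (adjusted p = 0.00173). Irf8 passed the filter on low counts only through groups other than KO and 41585, so this call follows in part from the filter. Without 41584 replicate 2, 2 of these genes fell.

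Among inhibitors of the pathway, 16 of 19 were tested, 2 rose and 4 fell (median -0.22), beside the 17.8% and 16.2% of all genes. Pias3, an inhibitor of STAT3, rose by 0.98 ± 0.25 (edgeR adjusted p = 0.0107), and Socs4 fell by 0.72 ± 0.19 (adjusted p = 0.0109), though not without WT replicate 1 (adjusted p = 0.0528), KO replicate 1 (0.0581) or 41585 replicate 1 (0.0514). The count of 4 was 0 without each of these libraries and 2 without KO replicate 2. The count of 2 was 1 without WT replicate 1, 41584 replicate 2, KO replicate 1, KO replicate 2 or 41585 replicate 1.

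Among sensors and kinases that lead to IRF3 activation, 12 of 12 were tested and 8 rose (median 1.6). In KO against WT 7 rose, beside 7.29% of all genes, but in 41585 against 41584 only 3, beside 7.65%. In 41589 against 41585, 1 of the 12 fell, beside 5.22% of all genes. Ddx58 and Tmem173 were among the 8, but their means in SOM, which is not in this contrast, were above those in 41585. Ddx58 had means of 106 CPM in SOM, 117 in KO and 89.9 in 41585. For Tmem173 these were 3.83, 6.35 and 2.9 CPM. Mavs, the adaptor of RIG-I and MDA5, held 47.1 to 49.3 CPM in KO and 41585 and 18.4 to 30.7 in the other 8 libraries, and rose by 1.32 ± 0.18 (edgeR adjusted p = 0.000305). Ikbke, a kinase of IRF3, rose by 3.27 ± 0.47 (adjusted p = 0.000436), or by 2.65 without 41585 replicate 1, and the double-stranded RNA receptor Tlr3 by 1.94 ± 0.36 (adjusted p = 0.00185). Ifih1, which encodes MDA5, had 66 reads in KO and 41585 and 1 in WT and 41584, a ratio with a 95% counting interval of 11 to 2550. Of the 66 reads, 47 were in KO and 19 in 41585. Its level was 0.257 to 4.27 CPM in KO and 41585 and at most 0.155 CPM in the other 8 libraries. It was not called in 41585 against 41584 (edgeR adjusted p = 0.0622). Ifih1 passed the filter on low counts only through KO and 41585. Its call, the counts of 8 and 7 that rose and the median therefore follow in part from the filter.

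Of the targets of ISGF3, 16 of 24 were tested, 12 rose and 1 fell (median 1.99). Oasl2, Ifit1, Oasl1 and Rsad2 passed the filter on low counts only through KO and 41585. The count that rose, the median and the count in 41589 against 41585 given below therefore follow in part from the filter. Oasl2 had 761 reads in KO and 41585 and 6 in WT and 41584 and rose (edgeR adjusted p = 4.84e-05). Oas1a, which makes the activator of RNase L, rose by 2.94 ± 0.34 (adjusted p = 0.000116), Ifi35 by 3.08 ± 0.36 (adjusted p = 0.000115) and Parp14 by 2.18 ± 0.29 (adjusted p = 0.000259). Reads of Oas genes may be shared with near-identical copies. The gene called lower was Mx1, with 1 read against 40 (adjusted p = 0.0114), which passed the filter only through groups other than KO and 41585. It was not called without 41584 replicate 1 (adjusted p = 0.0605), nor was any target called lower without WT replicate 2. The 8 targets not tested were Isg15, Ifit3, Mx2, Ifi44, Usp18, Irf7, Ifi27 and Rtp4, with at most 10 reads in any library, so several genes usually read as signs of an interferon response stayed near the limit of detection. In 41589 against 41585, 9 of the 16 fell, beside 5.22% of all genes. In 41589 against 41584 none of the 16 was called, as was 0% of all genes.

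Of IRF1 and antigen presentation targets, 15 of 19 were tested, 9 rose and 1 fell (median 1.38). Tapbp, the peptide-loading chaperone tapasin, held 67.9 to 101 CPM in KO and 41585 and 9.9 to 13.8 in the other 8 libraries, a rise of 3 ± 0.2 (edgeR adjusted p = 2.96e-06). Psme2, a subunit of the PA28 proteasome activator, rose by 2.3 ± 0.18 (adjusted p = 8.91e-06). The immunoproteasome subunit Psmb8 had 216 reads against 2 (95% counting interval of the ratio 28.4 to 864), and the GTPase Gbp2, whose reads may be shared with other Gbp genes, had 428 against 3 (46.7 to 669). Nlrc5, the transactivator of MHC class I genes, fell by 2.28 ± 0.54 (adjusted p = 0.0076), or by 2.96 without 41585 replicate 2. It held 0.351 to 1.54 CPM in KO and 41585 and 1.87 to 4.48 CPM in WT and 41584, but 0.731 to 1.82 CPM in SOM and 41589, which overlapped KO and 41585. Nlrc5 passed the filter on low counts only through groups other than KO and 41585, so its call follows in part from the filter. The count that fell was 2 without 41584 replicate 2. Like Irf2, the genes Gbp2, Gbp3, Psmb8 and Tap2 passed the filter on low counts only through KO and 41585. The count that rose, the median and the count in 41589 against 41585 given next therefore follow in part from the filter. In 41589 against 41585, 7 of the 15 fell, beside 5.22% of all genes.

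**Figure D3:**
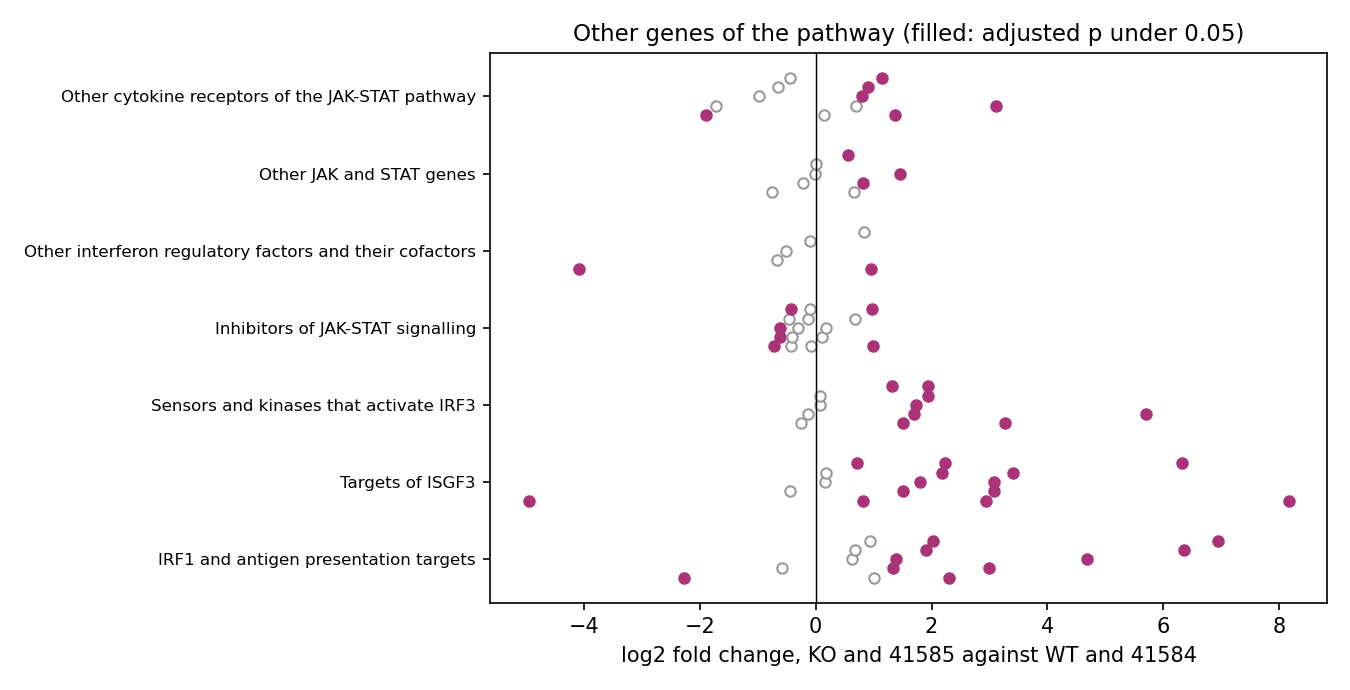
Fitted log2 fold change (horizontal axis) of each tested gene of the other pathway lists in the mean of both pairs, 1 point per gene, filled where the edgeR adjusted p was under 0.05. Most filled points of the last 3 lists lie to the right of 0, and genes with almost no reads on one side have uncertain folds.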

How the data were processed

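Raw counts per gene for the 12 libraries were deposited by the authors in 1 table. Reads were aligned with STAR 2.4.2a to GRCm38 (mm10), per the submitters' processing notes. The sources used here do not give the counting program or its strand setting. Of 47643 gene identifiers, 47224 matched a symbol. Genes were tested with edgeR 4.0.16 in R 4.3.3 by the robust quasi-likelihood test on the counts as deposited, with TMM scaling, filterByExpr, 1 mean per group over all 12 libraries and Benjamini-Hochberg adjustment over 14629 genes within each comparison, and were called under 0.05. The test was tested on simulated data. Standard errors were taken from the fold and the F statistic. The common biological coefficient of variation was 0.278 with 6 residual degrees of freedom. Intervals of count ratios are exact at 95% and cover counting error only. Sequences came from RefSeq (GRCm38.p6), and 3′ untranslated regions from the annotated transcripts. The 9 genes and all lists were chosen with earlier results of these data known. Named list genes were taken from the up to 4 per list with the smallest adjusted p. Lepr, Mx1 and Nlrc5 were added to state which gene of their list was called in the other direction. Further genes were named to state a limit, such as the filter on low counts or the level in SOM. Replicate numbers were not used as a pairing, because the labels do not say what they share. Alternatives were DESeq2 1.42.0, its size factors in edgeR, no filter, only the groups compared, a replicate block and leaving out each library. Figures were drawn with matplotlib. Some genes of the lists and neighbourhoods are not reported here.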

Additional observations from a re-analysis of the deposited data

How the results depend on the processing

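With each library left out in turn, the number of the 9 genes called was 1 to 3 in KO against WT, 3 to 3 in 41585 against 41584, 3 to 5 in the mean of both pairs, 2 to 4 in 41589 against 41585, 0 to 2 in SOM against KO, and 1 to 3 in 41589 against KO. The log2 fold of Stat2 ranged from -0.63 to 0.1, from -0.33 to 0.76 and from -0.32 to 0.23 in the first 3 of these, and that of Ifnar1 from -0.14 to 0.59 in 41585 against 41584. Under the other alternatives, directions were compared for part of the comparisons, and none changed. These were all 9 genes in KO against WT, in 41585 against 41584 and in their mean. They were also Irf1, Irf2, Irf9 and Jak1 in 41589 against 41585 and in SOM, 41584 and 41589 against KO. In 41589 against 41584 they were Irf1 and Irf9. A replicate block gave Tyk2 a log2 fold of 0.75 in the mean of both pairs (edgeR adjusted p = 0.0343) and changed no other member's call. The same-numbered libraries' deviations correlated at -0.08 to 0.51 over 15 pairs of groups, 5 of them over 0.1. Tyk2 was also called with no filter (0.0276) and when only the groups compared were fitted (0.0256), and Jak1 was then called in KO against WT (0.0153). The cause was not tested. The log2 fold in 41589 against 41584 ranged from -0.2 to 0.98 for Irf1 and from -0.25 to 0.46 for Irf9 with libraries left out. Over all genes, edgeR called 1929 in KO against WT, 1861 in 41585 against 41584, 1219 in 41589 against 41585, and 889, 1088 and 1037 in SOM, 41584 and 41589 against KO. With no filter these were 2950, 3073, 2271, 1544, 1858 and 1768, and with only the groups compared 4892, 403, 563, 2265, 384 and 833. With libraries left out they were 237 to 606, 348 to 1820, 306 to 2435, 107 to 368, 203 to 1332 and 186 to 694, and 2740 to 5285 in the mean of both pairs (4987). Comparisons with 0 calls gave, with no filter, 3 for 41589 against 41584, 1345 and 132 for SOM and 41584 relative to WT, 119 for 41585 against KO and 69 in the difference of effects. SOM against WT had 2035 and 41585 against KO 545 with only the groups compared, and the block gave 3 in SOM against WT. Genes with few reads, Irf2 first, are limited by depth.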

Other observations

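Genes whose pattern was most like that of Irf1 or Irf2 were sought among 10461 genes with a mean of at least 5 CPM, by Pearson correlation of log2 CPM over the 12 libraries, as a description without a test. The gene most like Irf1 was Irf9 (r = 0.982), followed by Tmem131l, Gfpt2 and Arid1b (each r = 0.981). The genes most like Irf2 were Nhsl2 (r = 0.985), 9530068E07Rik (0.982), Tefm (0.981), Gbp2b (0.98) and Tyw3 (0.979). The libraries fall into a high and a low set for all of these genes, so r reflects that split.

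The genes next to the members were read after the values were seen, in the mean of both pairs. Near Irf2, Primpol fell by 1.07 ± 0.23 (edgeR adjusted p = 0.00435) and Stox2 by 1.15 ± 0.35 (adjusted p = 0.0236), while Trappc11 had a log2 fold of -0.06 ± 0.14 (adjusted p = 0.756). The 4 genes beside Irf1 (Rad50, Kif3a, Slc22a5 and Slc22a21) had log2 folds of -0.48 to 0.57, none called. Beside Irf9, Psme2 rose by 2.3 ± 0.18 (adjusted p = 8.91e-06), whereas Rnf31, which lies between them and shares 2.28% of the exon bases of Irf9, had a log2 fold of 0.33 ± 0.26 (adjusted p = 0.342). Ifngr2, near Ifnar1, rose by 1.37 ± 0.28 (adjusted p = 0.00322) while Il10rb, between Ifnar1 and Ifnar2, had a log2 fold of -0.98 ± 0.6 (adjusted p = 0.221).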
